A study of Mus musculus with 6 samples.

Results

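The genes described here are 57 genes of the dividing cell, 24 that act in S phase, when DNA is copied, and 33 that act in G2 and mitosis, when the copied chromosomes are condensed and separated. They were chosen by name for their function, with earlier results of these data known, and all 57 were found among the 52636 genes of the count table and passed the filter on low counts. RNAseq was performed on 3 biological replicates of J110 cells and 3 of SSM3 cells, both mouse mammary tumour lines that were grown in culture to partial confluence without treatment. The J110 line traces back to mice whose AIB1 transgene, a cDNA, was read from the MMTV LTR, a promoter active in mammary epithelium. SSM3 came from mammary tumours of genetically altered 129SvEv mice. J110 was cultured with less serum and CO2 than SSM3, and the supplements differed, so line and culture cannot be told apart.

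Cells enter S phase when cyclin E with Cdk2 inactivates the retinoblastoma protein and frees E2F transcription factors, which switch on genes for origin licensing, nucleotide supply and DNA synthesis. Later the MuvB complex, with B-Myb and then FoxM1, switches on mitotic genes through a short promoter element called the CHR. In resting cells MuvB joins E2F4 and an RB relative to form DREAM, which holds both groups of genes down. In tumours the RNA of both groups is widely read as a sign of how many cells are dividing. In RNA from a whole culture, fewer cells in a phase and less RNA per cell cannot be told apart.

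Libraries held 5209740 to 5416305 counts in J110 and 4200785 to 4792941 in SSM3. A locus of ribosomal RNA on chromosome 17 took 15.1% to 17.2% of the counts in J110 and 0.779% to 1.27% in SSM3, and levels are given in CPM after TMM scaling. The gene of the J110 transgene, Ncoa3, had 110, 106 and 102 counts in J110 and 181, 199 and 186 in SSM3, so it was not higher in J110. The libraries sample the 3′ ends of transcripts, and these counts may lie outside the transgene's end. These counts therefore do not check the labels, and J110 and SSM3 mean the libraries labelled so. Epithelial markers summed to 3061 to 3200 CPM in J110, with 5 of 10 above 3 counts in every J110 library, and to 13840 to 15248 CPM in SSM3, with 10 of 10 above 3 counts in every library. Epcam, a defining epithelial marker, had 2, 1 and 7 counts in J110 and 2376, 2404 and 2412 in SSM3. Cdh1, or E-cadherin, had 21, 11 and 28 counts in J110 and 6019, 6369 and 7179 in SSM3. The keratin Krt18 went the other way, with 7401, 7330 and 6777 counts against 4223, 4510 and 5085, and Krt8 had 6182 to 6584 counts in J110 and 9668 to 12324 in SSM3. Fibroblast markers summed to at most 1.98 CPM in any library, with Col1a2, Pdgfrb and Lum at 0. Leukocyte markers summed to 29.4 to 37.0 CPM in J110 and 14.9 to 17.6 in SSM3, with Itgam and Adgre1 at 0. Most of these sums was Csf1r and Cd68, and Cd68 had 115, 95 and 70 counts in J110 and 9, 5 and 6 in SSM3. Endothelial markers summed to 159 to 182 CPM in J110, with 2 of 7 above 3 counts in every library, and 3.18 to 4.90 in SSM3, with Tie1 and Emcn at 0. Nearly all of the J110 sum was Cdh5, with 836, 790 and 856 counts in J110 and 0, 2 and 0 in SSM3, while Vwf went the other way, with 1, 1 and 4 counts against 21, 17 and 16. Erythroid markers summed to at most 2.0 CPM, with Hbb-bs and Hbb-bt at 0. The part of these cell type differences in the results below was not tested.

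Of the 24 S-phase genes, 9 were higher and 13 lower in SSM3 and 2 did not pass the test. The 3 genes listed for nucleotide supply (Rrm1, Rrm2 and Tyms) were lower, and Rrm1 turned higher once a trend with GC content was removed. Cyclin E1 and Mcm7 were higher, and the helicase subunits went both ways. Of the 33 G2/M genes, 7 were higher and 21 lower and 5 did not pass. The 5 genes listed for the centromere and outer kinetochore (Cenpa, Cenpe, Cenpf, Ndc80 and Nuf2) and the 2 for cytokinesis (Anln and Ect2) were lower, by up to 4.03-fold. Each gene was tested by the quasi-likelihood method of edgeR, its p adjusted by Benjamini-Hochberg over the 12284 genes tested at a threshold of 0.05, and log2 fold changes are SSM3 against J110. Over all genes tested 77.9% passed, 38.6% as higher and 39.2% as lower in SSM3, so a pass is common between these lines.

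The median log2 fold change was -0.30 for the S-phase genes (quartiles -0.87 and 0.44) and -0.59 for the G2/M genes (quartiles -1.09 and 0.0069), beside -0.014 for all genes tested. Without SSM3 replicate 3 the G2/M median was -0.37. At a change of at least 2-fold that also passed the test, 4 S-phase genes were higher and 3 lower, and none of the G2/M genes was higher, the largest rise being 1.85-fold (Nusap1), and 9 were lower. Over all genes tested these shares were 21.2% higher and 22.5% lower. The libraries of the lines did not overlap for 22 S-phase and 29 G2/M genes, against 79.6% of all genes tested. Of the G2/M genes that passed 75% were lower, and of the S-phase genes 59.1%, beside 50.4% of all genes that passed.

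**Figure D1:**
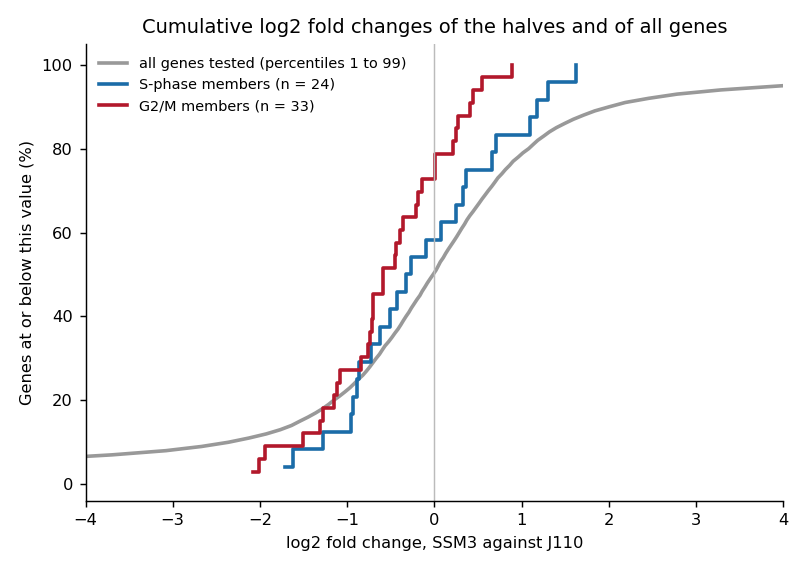
The share of genes at or below each log2 fold change (x axis, SSM3 against J110) is drawn for the 24 S-phase genes, the 33 G2/M genes and, as percentiles, the 12284 genes tested. The G2/M curve lies left of the others around its median of -0.59 and ends at 0.89, while the curve for all genes has longer tails on both sides.

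To compare the groups library by library, each was scored as the mean log2 CPM of its genes with a prior count of 2. In J110 the S-phase score averaged 6.35 ± 0.0058 and the G2/M score 6.68 ± 0.027 (SD, n = 3 libraries). In SSM3 they averaged 6.19 ± 0.050 and 6.13 ± 0.089 (SD, n = 3 libraries). Both scores were lower in SSM3 and the libraries of the lines did not overlap. With library size only the G2/M difference was -0.38 and the S-phase difference turned to 0.020. The direction of the S-phase score therefore depended on the scaling. Library size only raised the median over all genes too, and the S-phase median, at -0.12, stayed below it. The S-phase score minus the G2/M score was -0.36, -0.31 and -0.34 in the J110 libraries and 0.07, -0.04 and 0.15 in the SSM3 libraries. The balance was shifted from the mitotic towards the S-phase genes by 0.40 on the log2 scale, and every SSM3 library lay above every J110 library. With the median over the genes in place of the mean the shift was 0.094, with the same sign.

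**Figure D2:**
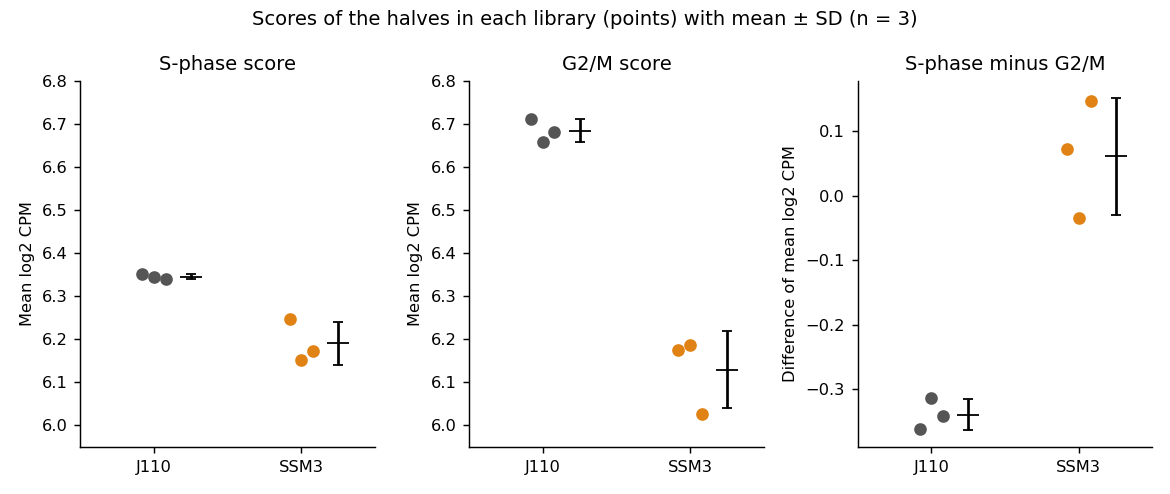
Points are the 3 libraries of each line, and lines are the mean ± SD of the mean log2 CPM over the 24 S-phase genes, over the 33 G2/M genes, and of their difference. The first 2 panels share a y range that does not start at 0. The G2/M score fell by 0.55 and the S-phase score by 0.16 from J110 to SSM3. The S-phase fall was not seen with library size only (0.020), which raised the median over all genes too.

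The fold changes moved with base composition. Over all genes tested, the median log2 fold change was -0.57 in the fifth of genes with the lowest GC content in the last 500 bases of their transcripts and 0.55 in the fifth with the highest. The S-phase genes that were higher in SSM3 had a median GC content of 50.7% and those that were lower 42.2%, and for G2/M genes the medians were 46.0% and 42.9%. Across genes, Spearman's rho between GC content and log2 fold change was 0.69 over the 24 S-phase genes, 0.48 over the 33 G2/M genes and 0.28 over 12265 genes, where all points come from the same 6 libraries and genes are not independent replicates. With this trend removed from each library, an alternative chosen after seeing the data, 8 S-phase genes were higher and 10 lower, with a median of -0.012. In that fit 7 G2/M genes were higher and 20 lower with a median of -0.60, and over all genes 37.2% were higher and 37.8% lower. The S-phase median moved to near 0, while the G2/M median stayed close to its value before. The mean scores moved in both groups, the S-phase difference from -0.16 to -0.088 and the G2/M difference from -0.55 to -0.44. The shift between the scores was 0.35 in that fit.

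**Figure D3:**
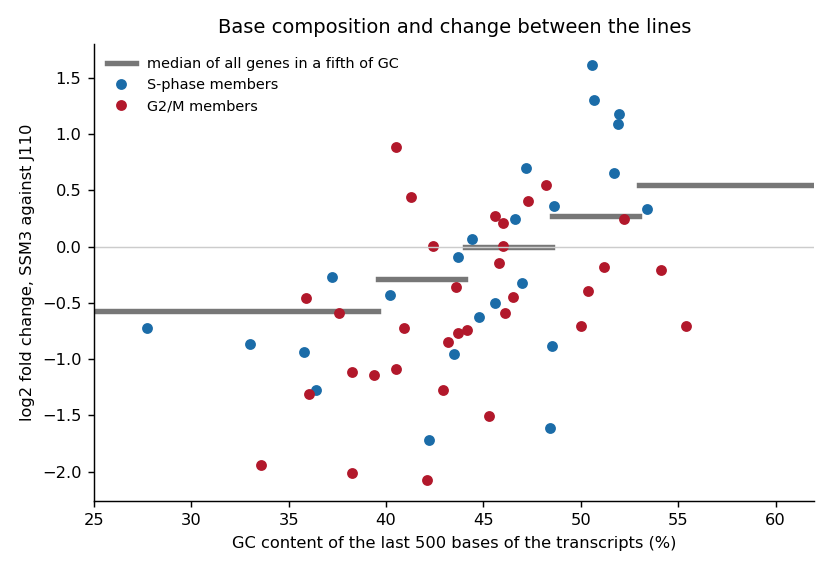
Each point is a gene, placed by the GC content of the last 500 bases of its transcripts (x axis, percent) and its log2 fold change (y axis, SSM3 against J110). Grey bars are the medians of all genes tested in 5 equal parts of GC content, rising from -0.57 to 0.55, with the outermost bars cut at the edges of the plot. S-phase genes follow the same rise, and the G2/M genes with a GC content below 45% lie mostly under the bars.

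Promoters of both groups were read from RefSeq (GRCm38.p6), which gave windows from 250 bases before to 50 after the transcription start for 48 of the 57 genes. For 41 of the 48, bases just after the start occur in a GENCODE transcript of the gene. The other starts lack this support, and all distances are to the RefSeq start. E2F motifs were searched on both strands as TTCCCGC and as its relatives TTGGCGC and also TTGCCGC and finally TTCGCGC. They were found for 13 of 21 S-phase genes (61.9%) and 5 of 27 G2/M genes (18.5%), against 10.9% of 27025 genes with a window. CHR motifs (the letters TTTGAA or the variant TTCGAA on either strand) were found for 4 of 21 S-phase genes (19.0%) and 20 of 27 G2/M genes (74.1%), against 21.7% of all. CCAAT boxes (CCAAT on either strand), which often lie beside a CHR, were found for 61.9% of the S-phase and 74.1% of the G2/M genes, against 41.1% of all. The motifs were not used to choose the genes, and a match is not proof of binding.

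Motifs were also counted by direction. Of the G2/M genes with a window, a CHR motif was found for 14 of 17 that were lower in SSM3, 3 of 6 that were higher and 3 of 4 that did not pass. Of the S-phase genes, an E2F motif was found for 7 of 11 that were lower, 4 of 8 that were higher and 2 of 2 that did not pass. A CCAAT box was found for 10 of 11 S-phase genes that were lower, 3 of 8 that were higher and 0 of 2 that did not pass, and for 13 of 17, 4 of 6 and 3 of 4 G2/M genes. These counts are small and are a description.

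Stretches of 150 bases before the start are shown for a few genes of each group, with and without matches, to let the motifs be seen beside the values, and motif letters are in capitals. In the S-phase group, Mcm6 and Rrm1 were lower in SSM3 and hold E2F motifs and CCAAT boxes, while Ccne1, the most raised, holds no match in its window. Rrm1 turned higher with the GC trend removed (0.22). Raised S-phase genes hold E2F motifs too, 4 of 8 with a window, so the genes shown do not stand for a direction. In Mcm6 the E2F matches of both strands overlap, beginning 109 and 46 bases before the start, and in Rrm1 the match begins 67 bases before it.
Mcm6, chr1:128359706-128359855, minus strand: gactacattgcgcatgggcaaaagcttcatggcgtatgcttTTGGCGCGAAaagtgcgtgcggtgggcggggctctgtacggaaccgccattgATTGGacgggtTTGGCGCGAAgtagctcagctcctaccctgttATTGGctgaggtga
Rrm1, chr7:102441545-102441694, plus strand: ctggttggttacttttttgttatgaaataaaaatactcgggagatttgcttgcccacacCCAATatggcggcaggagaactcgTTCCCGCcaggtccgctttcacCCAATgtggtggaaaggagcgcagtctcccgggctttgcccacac
Ccne1, chr7:38107491-38107640, minus strand: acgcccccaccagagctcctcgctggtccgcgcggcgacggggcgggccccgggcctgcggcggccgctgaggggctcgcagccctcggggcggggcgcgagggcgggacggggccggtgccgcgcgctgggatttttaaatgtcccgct

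In the G2/M group, Cdk1 and Kif11 were lower in SSM3, Ube2c did not pass the test, and all hold CHR motifs and CCAAT boxes. The CHR begins 71 and 15 bases before the start in Cdk1, 19 in Kif11 and 29 in Ube2c. Cdk1 also holds an E2F match that begins 130 bases before the start. Nusap1, the most raised G2/M gene, holds no match in its window. Cdc20, which passed as higher and is not shown, holds a CHR that begins 18 bases before the start. A CHR was found for 3 of 6 raised G2/M genes with a window. With the GC trend removed Kif11 was at -0.13 and did not pass, and Cdc20 was at -0.11.
Cdk1, chr10:69352913-69353062, minus strand: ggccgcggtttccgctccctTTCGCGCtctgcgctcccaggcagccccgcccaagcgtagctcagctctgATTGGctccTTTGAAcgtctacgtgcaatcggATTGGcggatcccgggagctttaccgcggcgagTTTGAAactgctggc
Kif11, chr19:37376232-37376381, plus strand: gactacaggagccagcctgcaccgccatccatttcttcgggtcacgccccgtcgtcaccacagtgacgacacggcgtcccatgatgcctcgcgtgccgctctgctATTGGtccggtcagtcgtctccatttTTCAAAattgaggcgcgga
Ube2c, chr2:164769779-164769928, plus strand: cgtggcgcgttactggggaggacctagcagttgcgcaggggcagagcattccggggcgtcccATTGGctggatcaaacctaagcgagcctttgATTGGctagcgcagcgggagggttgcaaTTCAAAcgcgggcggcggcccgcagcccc
Nusap1, chr2:119618148-119618297, plus strand: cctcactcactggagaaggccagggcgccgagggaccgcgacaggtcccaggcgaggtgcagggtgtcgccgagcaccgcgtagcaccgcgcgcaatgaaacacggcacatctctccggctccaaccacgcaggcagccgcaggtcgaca

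Licensing prepares each origin of replication once per cycle by loading the ring of Mcm2 to Mcm7, which becomes the replicative helicase with Cdc45 and the GINS complex. Mcm7 (chr5:138164583-138172422 in mm10) had 643, 625 and 613 counts in J110 and 1344, 1359 and 1717 in SSM3. It was 2.48-fold higher in SSM3 (log2 fold change 1.31, SE 0.08, edgeR adjusted p = 2.54e-10), and its libraries did not overlap. Mcm4 (chr16:15623897-15637400) went the other way, with 869, 775 and 774 counts in J110 and 364, 291 and 284 in SSM3. It was 2.42-fold lower (log2 fold change -1.28, SE 0.11, edgeR adjusted p = 2.05e-08), again without overlap. Mcm3 (-0.50) and Mcm6 (-0.32) were lower on the log2 scale, and Mcm6 lost its call with library size only (-0.15). Mcm5 had 416, 383 and 357 counts in J110 and 481, 437 and 489 in SSM3 (log2 fold change 0.37, SE 0.09, edgeR adjusted p = 0.00114), and Mcm2 had 388, 366 and 335 against 367, 382 and 474 (0.25, SE 0.09, edgeR adjusted p = 0.0204). Both were modestly higher in SSM3 after scaling for library size, and in CPM the lines did not overlap. The Mcm2 call was lost without J110 replicate 2, J110 replicate 3 or SSM3 replicate 3, with a log2 fold change of 0.17 and an edgeR adjusted p = 0.0989 in the last. It was also lost with the GC trend removed (0.21, edgeR adjusted p = 0.0533) and by DESeq2 (0.24, adjusted p = 0.0552).

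Because the 6 subunits form 1 ring, their shares of the summed Mcm2 to Mcm7 counts were also compared, a value that no scaling of libraries changes. Mcm7 made up 15.0% ± 0.385 of these counts in J110 and 36.0% ± 2.72 in SSM3 (SD, n = 3). Mcm4 fell from 19.2% ± 0.407 to 7.72% ± 1.34 and Mcm3 from 27.3% ± 0.308 to 18.8% ± 1.71 (SD, n = 3). For all 6 subunits the libraries of the lines did not overlap. As these are shares of 1 sum, a rise of Mcm7 by itself lowers the shares of the others. With the GC trend removed the log2 fold change was 1.04 for Mcm7, -0.74 for Mcm4 and -0.48 for Mcm3. Mcm7 shares 321 exon bases with Ap4m1 and 64 with Cops6, both on the opposite strand, and Ap4m1 had 174 to 199 counts in J110 and 352 to 402 in SSM3. The counts do not separate such genes without a known strand setting, and 21.0% of the 75-base words in the last 500 bases of Mcm7 transcripts also occur in another gene, so its value is uncertain.

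Other licensing factors also split. Cdt1, which loads the helicase with Cdc6, had 451, 451 and 388 counts in J110 and 678, 611 and 694 in SSM3. It was 1.63-fold higher without overlap (log2 fold change 0.70, SE 0.09, edgeR adjusted p = 1.43e-06). Its partner Cdc6 had 218, 187 and 163 counts against 164, 163 and 176 and did not pass (log2 fold change -0.093, SE 0.11, edgeR adjusted p = 0.468). The Cdc6 value turned to 0.082 with library size only. Cdc45 was lower by 0.88 on the log2 scale, with 122 to 144 counts in J110 and 65 to 72 in SSM3. Gins2 had 410, 394 and 396 counts in J110 and 464, 472 and 492 in SSM3 (log2 fold change 0.33, SE 0.08, edgeR adjusted p = 0.00145). The Gins2 libraries did not overlap, but its last 500 bases lie within exons of Gse1 on the opposite strand, which had nearly the same counts, and with the GC trend removed the value was -0.087.

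**Figure D4:**
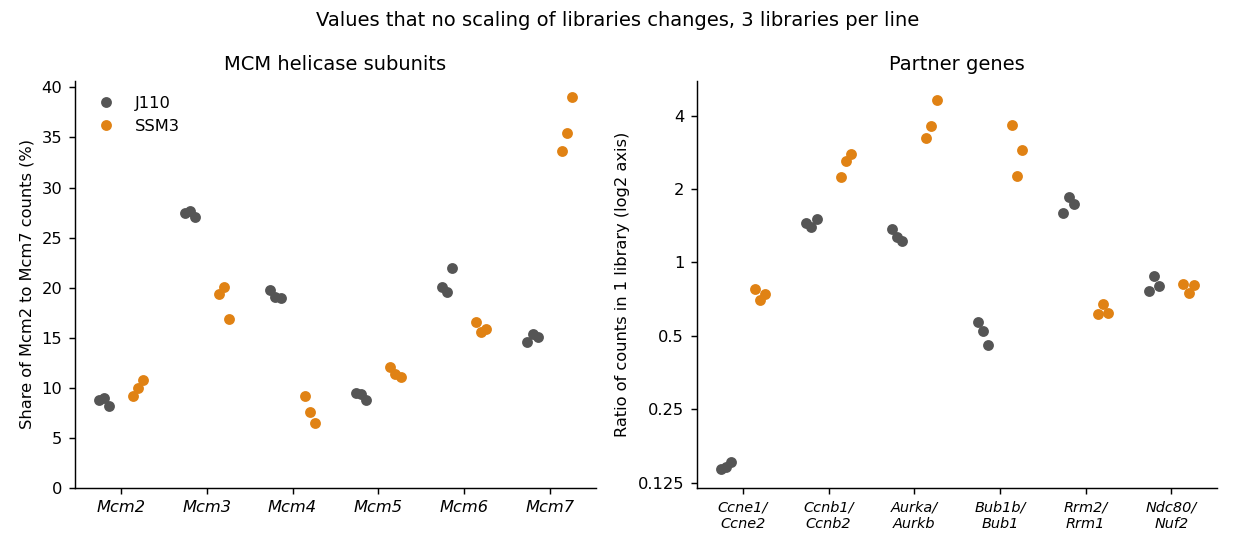
On the left, points give each subunit's share of the Mcm2 to Mcm7 counts in a library (y axis, percent), and on the right the ratio of the counts of 2 related genes in a library (y axis, log2 scale), in 3 libraries per line. Mcm7 rises from 15.0% to 36.0% of the counts, and 5 of the 6 ratios separate the lines while Ndc80/Nuf2 does not.

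The 3 genes listed for nucleotide supply were lower in SSM3. Rrm2, the small subunit of ribonucleotide reductase, which makes deoxynucleotides (chr12:24708241-24714146), had 1696, 1822 and 1688 counts in J110 and 486, 504 and 508 in SSM3. It was 3.29-fold lower, the largest fall of the S-phase group (log2 fold change -1.72, SE 0.08, edgeR adjusted p = 3.31e-12). Tyms, thymidylate synthase, which makes thymidylate and is the target of fluorouracil (chr5:30058202-30073617), had 452, 476 and 413 counts in J110 and 123, 130 and 161 in SSM3. It was 3.07-fold lower (log2 fold change -1.62, SE 0.10, edgeR adjusted p = 2.16e-10), and neither gene overlapped between the lines. Rrm1, the large subunit, had 973 to 1059 counts in J110 and 744 to 816 in SSM3 (log2 fold change -0.27). The Rrm1 call did not hold with library size only (-0.10, edgeR adjusted p = 0.255), and with the GC trend removed the value turned to 0.22 (edgeR adjusted p = 0.0174). Rrm2 and Tyms kept values of -1.47 and -1.76 in that fit. Tk1, thymidine kinase, which is on the list of other replication genes and is named after its value was seen, went the other way (log2 fold change 0.31, SE 0.08, edgeR adjusted p = 0.00166), and was at -0.13 with the GC trend removed.

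Of the 5 genes listed for DNA synthesis, 3 were lower, the ligase was higher and Fen1 did not pass. Lig1, which joins Okazaki fragments, had 804, 804 and 897 counts in J110 and 1567, 1631 and 1873 in SSM3. It was 2.13-fold higher (log2 fold change 1.09, SE 0.08, edgeR adjusted p = 3.07e-09). Pola1, the catalytic subunit of DNA polymerase alpha, had 309, 283 and 256 counts in J110 and 168, 128 and 121 in SSM3. It was 1.91-fold lower (log2 fold change -0.94, SE 0.14, edgeR adjusted p = 8.74e-06), and for both genes the lines did not overlap. Pcna, the sliding clamp (-0.87), and Prim1, a primase subunit (-0.43), were lower on the log2 scale. With the GC trend removed Pola1 was at -0.37, Pcna at -0.21 and Prim1 at -0.090, where Prim1 no longer passed. With the GC and length trends removed Pola1 was at -0.28 and did not pass either (edgeR adjusted p = 0.0673). Fen1, the flap endonuclease, had 359, 366 and 326 counts in J110 and 420, 351 and 267 in SSM3 and did not pass (log2 fold change 0.072, SE 0.14, edgeR adjusted p = 0.654). Without SSM3 replicate 3 it was at 0.27 (edgeR adjusted p = 0.0214), and it shares 1909 exon bases with Gm10143 on the opposite strand, which had almost the same counts.

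Among genes of repair, DNA methylation and histone RNA, Ung, the uracil glycosylase that removes misincorporated uracil, had 90, 91 and 74 counts in J110 and 185, 162 and 200 in SSM3. It was 2.27-fold higher (log2 fold change 1.18, SE 0.13, edgeR adjusted p = 4.77e-07). Slbp, which binds the end of histone mRNAs, had 450, 476 and 408 counts in J110 and 206, 209 and 238 in SSM3. It was 1.93-fold lower (log2 fold change -0.95, SE 0.09, edgeR adjusted p = 4.97e-08), and Uhrf1, which guides DNA methylation to new strands, was lower by 0.62 on the log2 scale. None of the 3 overlapped between the lines.

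The regulators of S-phase entry included the largest rise of the S-phase group. Ccne1, cyclin E1 (chr7:38097984-38107534), had 70, 69 and 67 counts in J110 and 188, 207 and 204 in SSM3. It was 3.07-fold higher (log2 fold change 1.62, SE 0.13, edgeR adjusted p = 5.07e-09). E2f1, an activating E2F, had 140, 138 and 132 counts in J110 and 172, 196 and 245 in SSM3. It was 1.57-fold higher (log2 fold change 0.66, SE 0.12, edgeR adjusted p = 1.06e-04), and both genes separated the lines. Ccne2, cyclin E2, was lower, with 443 to 494 counts in J110 and 241 to 294 in SSM3 (log2 fold change -0.72). With the GC trend removed Ccne1 was at 1.35 and Ccne2 at 0.076, where Ccne2 no longer passed. Ccne2 shares 609 exon bases with Ints8 on the opposite strand, and 63.4% of the 75-base words in the last 500 bases of its transcripts also occur in Ints8, so its value is uncertain.

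Pairs of related genes were compared as the ratio of their counts within each library, which no scaling of whole libraries changes. The 6 pairs were chosen after the values were seen, so the ratios are a description. Ccne1 over Ccne2 went from 0.146 ± 0.0048 in J110 to 0.742 ± 0.038 in SSM3 (SD, n = 3), so the E-type cyclins moved 5.08-fold apart, or 2.42-fold with the GC trend removed. Rrm2 over Rrm1 went from 1.73 ± 0.13 to 0.637 ± 0.035 and Ccnb1 over Ccnb2 from 1.45 ± 0.055 to 2.54 ± 0.28 (SD, n = 3). Aurka over Aurkb went from 1.29 ± 0.074 to 3.85 ± 0.73 and Bub1b over Bub1 from 0.517 ± 0.058 to 2.95 ± 0.71 (SD, n = 3). The lines moved apart by 5.62-fold in the Bub1b to Bub1 ratio, or 3.29-fold with the GC trend removed. In these 5 pairs the lines did not overlap. Ndc80 over Nuf2, 2 arms of the same kinetochore complex, was 0.815 ± 0.061 in J110 and 0.790 ± 0.035 in SSM3 (SD, n = 3), and the lines overlapped.

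In the G2/M group, the cyclins and their kinase came first. Cyclins A2, B1 and B2 bind Cdk1, and the Cdc25c phosphatase activates it at entry into mitosis. Ccna2 was lower by 1.09 on the log2 scale, with 974 to 1114 counts in J110 and 449 to 485 in SSM3. It shares 510 exon bases with Exosc9 on the opposite strand. Exosc9 had 279 to 352 counts in J110 and 122 to 135 in SSM3, so the size of the Ccna2 fall is uncertain. Cdk1 (-0.59), Cdc25c (-0.70) and Ccnb2 (-0.36) were also lower, and for Ccnb2 the call was lost with library size only (-0.18) and with the GC trend removed (-0.19, edgeR adjusted p = 0.0556). Ccnb1 went the other way, with 706, 670 and 668 counts in J110 and 821, 866 and 944 in SSM3. It was 1.36-fold higher without overlap (log2 fold change 0.44, SE 0.07, edgeR adjusted p = 3.56e-05). Of the 75-base words in the last 500 bases of its transcripts, 26.0% also occur in Gm12856, which had 0 counts.

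Spindle checkpoint genes, which hold mitosis until every chromosome is attached, split between paralogs. Bub1, a checkpoint kinase (chr2:127801122-127831865), had 380, 392 and 366 counts in J110 and 90, 111 and 78 in SSM3. It was 3.85-fold lower (log2 fold change -1.94, SE 0.13, edgeR adjusted p = 4.53e-10). Bub1b, which encodes the related BubR1, had 217, 205 and 167 counts in J110 and 331, 252 and 226 in SSM3. It was 1.46-fold higher (log2 fold change 0.55, SE 0.15, edgeR adjusted p = 0.00309). Neither overlapped, and without SSM3 replicate 1 the value of Bub1b was 0.34. Ttk, the kinase that starts the checkpoint signal, was lower by 1.11 on the log2 scale. Mad2l1, which blocks the anaphase-promoting complex, was at -0.45 and turned to 0.11, which did not pass, with the GC trend removed.

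The activator of that complex, Cdc20, had 890, 699 and 617 counts in J110 and 748, 807 and 916 in SSM3. It passed as 1.19-fold higher (log2 fold change 0.25, SE 0.10, edgeR adjusted p = 0.0304), but the lines overlapped. The call was lost without J110 replicate 2, J110 replicate 3, SSM3 replicate 2 or SSM3 replicate 3, where the value lay between 0.15 and 0.26, and with upper quartile factors (0.21, edgeR adjusted p = 0.0564), and with the GC trend removed the value was -0.11. Ube2c, the ubiquitin-conjugating enzyme of the complex, had 1187, 1118 and 1107 counts against 1081, 1051 and 1108. It did not pass and lay near 0 (log2 fold change 0.0069, SE 0.07, edgeR adjusted p = 0.931), while with library size only it passed at 0.18 (edgeR adjusted p = 0.0304).

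Of the mitotic kinases and their passenger, Aurka, the centrosomal Aurora kinase, had 388, 350 and 355 counts in J110 and 462, 426 and 480 in SSM3. It was 1.32-fold higher (log2 fold change 0.40, SE 0.09, edgeR adjusted p = 4.55e-04). Birc5, or survivin, which places Aurora B at the centromere, had 1422, 1208 and 1199 counts against 1368, 1442 and 1568. It was 1.21-fold higher after scaling (log2 fold change 0.27, SE 0.07, edgeR adjusted p = 0.00257), and for both genes the CPM of the lines did not overlap. Aurkb, the Aurora kinase of the passenger complex, was lower by 1.15 on the log2 scale, with 274 to 291 counts in J110 and 103 to 142 in SSM3. Plk1, which acts from centrosome to cytokinesis, was at -0.70.

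All 5 genes listed for the centromere and outer kinetochore were lower. Cenpe, the kinetochore motor that moves chromosomes to the spindle equator (chr3:135212537-135273611), had 1279, 1254 and 1366 counts in J110 and 349, 460 and 498 in SSM3. It was 2.84-fold lower (log2 fold change -1.50, SE 0.10, edgeR adjusted p = 5.14e-10). Cenpf, another large kinetochore protein, was at -1.28, and Ndc80 and Nuf2, the partners that grip microtubules, at -0.77 and -0.72. Cenpa, the histone H3 variant of centromeres, was at -0.39 and lost its call with library size only (-0.22, edgeR adjusted p = 0.0651). None of the 5 overlapped, and all 5 passed as lower with the GC trend removed.

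Motors and microtubule proteins of the spindle held the largest fall and the largest rise of the G2/M group. Kif23, the motor of the centralspindlin complex, which builds the midzone (chr9:61915905-61946774), had 738, 761 and 727 counts in J110 and 133, 199 and 168 in SSM3. It was 4.22-fold lower (log2 fold change -2.08, SE 0.11, edgeR adjusted p = 3.72e-11). Nusap1, which bundles spindle microtubules near chromosomes (chr2:119618298-119651244), had 304, 244 and 236 counts in J110 and 423, 476 and 474 in SSM3. It was 1.85-fold higher (log2 fold change 0.89, SE 0.10, edgeR adjusted p = 2.65e-07), and 1.21 on the log2 scale with the GC trend removed. Tpx2, which activates Aurora A on the spindle, had 615, 587 and 581 counts against 606, 619 and 728 (log2 fold change 0.21, SE 0.08, edgeR adjusted p = 0.0230). This small difference did not hold without J110 replicate 1, J110 replicate 2 or SSM3 replicate 3, where it lay between 0.17 and 0.20, nor by DESeq2 (0.21, adjusted p = 0.0502).

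The other spindle genes were lower. Hmmr, a spindle pole protein, was at -0.84 on the log2 scale, Kif20a, a midzone motor, at -0.74, Kif11, the motor that separates the poles, at -0.59, and Prc1, a midzone bundler, at -0.44. Kif11 moved to -0.37 without SSM3 replicate 3, in which it had 79 counts against 115 and 128 in the other SSM3 libraries, and to -0.13, which did not pass, with the GC trend removed. Kif20a shares 1271 exon bases with Cdc23 and Prc1 911 with Rccd1, both on the opposite strand and with similar counts, so both are uncertain.

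Cytokinesis, the splitting of the cell, had 2 genes on the list. Anln, which anchors the contractile ring (chr9:22332012-22389188), had 846, 878 and 696 counts in J110 and 206, 235 and 123 in SSM3. It was 4.03-fold lower (log2 fold change -2.01, SE 0.17, edgeR adjusted p = 1.25e-08). Ect2, the RhoA activator that starts the ring (chr3:27097222-27153878), had 389, 379 and 387 counts in J110 and 169, 143 and 127 in SSM3. It was 2.48-fold lower (log2 fold change -1.31, SE 0.12, edgeR adjusted p = 3.92e-08). Neither overlapped, and Anln varied most of all members between the SSM3 libraries, with a coefficient of variation of 34.1% beside a median of 8.69%.

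Mki67 and Top2a, both used as proliferation markers, did not pass, whereas Pcna was lower. Mki67, the Ki-67 antigen that coats mitotic chromosomes, had 1062, 976 and 1085 counts in J110 and 747, 940 and 996 in SSM3 and did not pass (log2 fold change -0.14, SE 0.09, edgeR adjusted p = 0.143). Top2a, topoisomerase II alpha, which untangles sister chromatids, had 2022, 1957 and 2056 counts against 1659, 2007 and 2104 (log2 fold change 0.010, SE 0.08, edgeR adjusted p = 0.903). Both overlapped between the lines, and with library size only Mki67 was at 0.032 and Top2a passed at 0.19 (edgeR adjusted p = 0.0276). Top2a also passed as higher with the GC trend removed, at 0.24 (edgeR adjusted p = 0.00962). The transcription factors of late cell cycle genes did not pass either. Foxm1 had 506, 536 and 443 counts in J110 and 402, 416 and 418 in SSM3 (log2 fold change -0.18, SE 0.09, edgeR adjusted p = 0.0630). Mybl2, which encodes B-Myb, had 187, 176 and 152 counts against 142, 132 and 147 (log2 fold change -0.21, SE 0.12, edgeR adjusted p = 0.118). In CPM neither overlapped, and both passed as lower with the GC trend removed, at -0.48 and -0.66. Foxm1 also passed without J110 replicate 3 (-0.24, edgeR adjusted p = 0.0307), with upper quartile factors (-0.21) and with a filter of at least 10 counts in every library (-0.20).

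**Figure D5:**
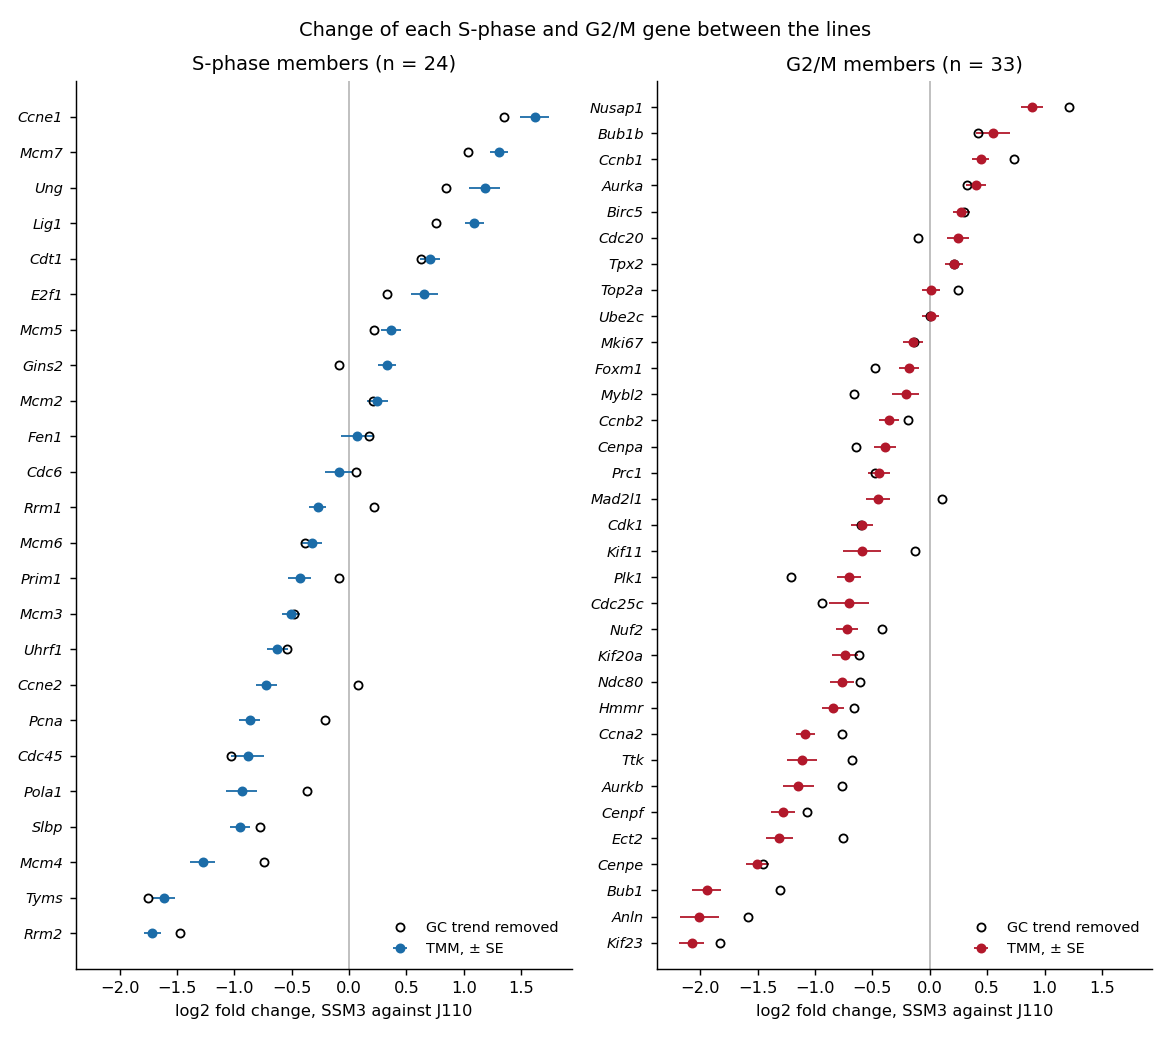
Filled points are the log2 fold change of each gene, SSM3 against J110, with bars of 1 SE, and open points the value with the GC trend removed. S-phase genes run from -1.72 (Rrm2) to 1.62 (Ccne1) and G2/M genes from -2.08 (Kif23) to 0.89 (Nusap1), and the open points of Rrm1, Ccne2, Mad2l1, Cdc20, Gins2 and Cdc6 lie on the other side of 0.

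Other genes of the same pathways were read from lists of 50 replication genes and 60 mitosis genes. All 50 replication genes were tested, and 14 were higher (28%), 19 lower (38%) and 17 did not pass, with a median log2 fold change of -0.077, beside 38.6% higher and 39.2% lower over all genes. All 60 mitosis genes were tested, and 17 were higher (28.3%), 33 lower (55%) and 10 did not pass, with a median of -0.41. Prim2, the other primase subunit, had 251, 267 and 212 counts in J110 and 29, 27 and 41 in SSM3, a 7.10-fold fall (log2 fold change -2.83, SE 0.16, edgeR adjusted p = 6.91e-11). Dbf4, the activator of the Cdc7 kinase that fires origins, had 575, 630 and 716 counts against 171, 201 and 172 (log2 fold change -1.74, SE 0.12, edgeR adjusted p = 8.83e-10). Rnaseh2a, which removes ribonucleotides from DNA, had 212, 225 and 192 counts against 389, 384 and 417 (log2 fold change 1.0, SE 0.09, edgeR adjusted p = 2.83e-08). Gins4, a GINS subunit, had 168, 163 and 171 counts against 253, 271 and 310 (log2 fold change 0.81, SE 0.10, edgeR adjusted p = 1.44e-06). None of the 4 overlapped between the lines. Dbf4 was at -1.15 and Rnaseh2a at 0.54 with the GC trend removed.

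Among mitosis genes Zwilch, a kinetochore checkpoint protein, had 253, 289 and 251 counts in J110 and 51, 57 and 37 in SSM3 (log2 fold change -2.37, SE 0.16, edgeR adjusted p = 7.74e-10). Nek2, a centrosome kinase, had 294, 288 and 274 counts against 70, 61 and 27 (log2 fold change -2.35, SE 0.21, edgeR adjusted p = 3.05e-08). Kif18b, a microtubule-depolymerising motor, went the other way, with 25, 14 and 19 counts against 77, 88 and 106 (log2 fold change 2.29, SE 0.22, edgeR adjusted p = 6.18e-08). Pttg1, or securin, which restrains separase, had 427, 337 and 341 counts in J110 and 1062, 1294 and 1331 in SSM3 (log2 fold change 1.82, SE 0.09, edgeR adjusted p = 2.42e-11), so both were among the mitosis genes that went against the direction of most. Named after their values were seen, the other subunits of the passenger complex, Incenp (0.40) and Cdca8 (0.69), went with Birc5 and against Aurkb. In the condensin complex, which compacts chromosomes, Smc2 (-1.05), Smc4 (-1.10), Ncapg (-1.64) and Ncaph (-0.40) were lower and Ncapd2 (1.48) higher. In the Ndc80 complex Spc25 was at -0.47 and Spc24 at 1.27. With the GC trend removed Incenp was at 0.080 and Spc25 at -0.13, and neither passed, while Cdca8 was at 0.31, Smc2 at -0.46, Smc4 at -0.58, Ncapg at -0.96, Ncaph at -0.47, Ncapd2 at 1.16 and Spc24 at 0.89.

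Of 21 regulators of the E2F, RB and DREAM system, 20 were tested, and 7 were higher (35%), 11 lower (55%) and 2 did not pass, with a median of -0.33, beside 38.6% higher and 39.2% lower over all genes. Lin52 was not tested, with 2 to 20 counts in a library. E2f8, a repressor of E2F targets, had 445, 428 and 320 counts in J110 and 57, 56 and 49 in SSM3, a 6.93-fold fall (log2 fold change -2.79, SE 0.14, edgeR adjusted p = 1.61e-11). Rb1, the retinoblastoma gene, had 152, 143 and 171 counts in J110 and 31, 37 and 36 in SSM3, a 4.24-fold fall (log2 fold change -2.08, SE 0.16, edgeR adjusted p = 6.12e-09). The 42 other genes tested within 5 Mb of Rb1 had a median log2 fold change of -2.40, so Rb1 lay close to its neighbours. E2f2, an activating E2F, had 66, 66 and 82 counts in J110 and 180, 217 and 221 in SSM3, a 3.04-fold rise (log2 fold change 1.60, SE 0.14, edgeR adjusted p = 2.34e-08). Lin37, a MuvB subunit, had 21, 18 and 26 counts in J110 and 45, 38 and 60 in SSM3 (log2 fold change 1.21, SE 0.25, edgeR adjusted p = 3.19e-04). E2f3, named after its value was seen, was at 0.69, so the activating E2F genes E2f1, E2f2 and E2f3 were all higher in SSM3 while Rb1 was lower. Other genes of the list differed from this. Tfdp1 (-0.71) and Tfdp2 (-0.45), which encode dimer partners of E2F, were lower, and Rbl2 (0.46), an RB relative, was higher. With the GC trend removed E2f1 was at 0.33, E2f2 at 1.21, E2f3 at 1.26, Lin37 at 0.58, E2f8 at -2.18 and Rb1 at -1.39. In that fit Tfdp1 was at -0.55, Rbl2 at 1.11 and Tfdp2 at -0.17, which did not pass.

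Neighbouring genes were also compared with the members themselves. Spearman's rho between a member's log2 fold change and the median of the other genes tested within 5 Mb was 0.47 over the 24 S-phase genes and 0.53 over the 33 G2/M genes, across genes that share libraries and local base composition. Around the genes with the largest changes the medians were -0.34 around Kif23, -0.06 around Anln, -0.08 around Bub1, 0.32 around Rrm2 and -0.26 around Ccne1.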

How the data were processed

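RNA of 3 J110 and 3 SSM3 cultures was sequenced with the QuantSeq 3′ kit. The authors trimmed reads with cutadapt (version 2.1), mapped them to mm10 with HISAT2 (2.0.4), counted them per gene with featureCounts (Subread 2.0.0) and deposited raw counts without normalisation. Strand setting and handling of reads over several genes are not given in the sources used here. Of 52636 gene IDs, 52403 were given symbols and 52489 matched GENCODE vM21, which gave coordinates.

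After filterByExpr and TMM scaling, edgeR's quasi-likelihood test (4.0.16, R 4.3.3) was used at an adjusted p threshold of 0.05. The SE is the log2 fold change divided by the square root of F. TMM factors were 0.920 to 0.958 in J110 and 1.05 to 1.07 in SSM3. Dropping them moved the median of the log2 fold changes over all genes from -0.014 to 0.16. Values given with library size only carry this upward shift. CPM uses the scaled library sizes, and a count of 3 equals 0.578 to 0.668 CPM, which covers counting error only. The biological coefficient of variation was 8.30%. Replicates differed by more than sampling noise (chi-square per degree of freedom 2.21 to 5.62). In a simulation of 12284 genes, 11993 of them tested, 92.6% of genes changed by 1 on the log2 scale and 100% of those changed by 2 were recovered. Only 200 genes were changed, equally up and down and with the same dispersion for all genes, and 7 of 195 calls were of unchanged genes. Far more genes passed in the data, so recovery there may differ.

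The members and lists were chosen with earlier results of these data known. Given with full values were the 5 members per group with the largest change in each direction, those against the direction of most of their group and those that did not pass, and in further lists the 2 largest in each direction. Exon overlaps used bedtools 2.31.1, and 17 of 57 members share exon bases with another gene. Alternatives used DESeq2 (1.42.0), limma-voom (3.58.1), other scalings, filters and depths, a fold threshold, a replicate block and leave-one-out fits. Alternatives that removed trends in GC content and length, and those of the single scores, were added after seeing the data. The genotype of the mice behind SSM3 and some marker genes are not reported here.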

Additional observations from a re-analysis of the deposited data

How the results depend on the processing

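The counts of genes passing in each group stayed within 1.5 times under every alternative except a fold threshold, and 50 of 57 members kept their direction and side of the threshold without each library in turn, 22 of 57 in every alternative. With glmTreat above 1.5-fold, 6336 genes passed, with 4 S-phase genes higher and 8 lower, 1 G2/M gene higher and 11 lower, 3 other replication genes higher and 8 lower, 9 other mitosis genes higher, and 3 E2F, RB and DREAM regulators higher and 7 lower, as a threshold on fold must lower such counts. The S-phase median was -0.12 with library size only, -0.012 with the GC trend removed, 0.033 with the GC and length trends removed, and -0.35 to -0.25 without each library. The G2/M median was -0.41 with library size only and -0.62 to -0.37 without each library, where the highest value was without SSM3 replicate 3. The shift between the scores was 0.094 with the median over the members and 0.36 to 0.45 without each library. With library size only, without members that share exons, with the GC trend removed and with the GC and length trends removed, all added after seeing the data for the single scores, the S-phase score difference was 0.020, -0.23, -0.088 and -0.084, against -0.16, and the G2/M score difference -0.38, -0.68, -0.44 and -0.42, against -0.55. Precision was lowest for Cdc25c, with 42 to 57 counts in SSM3 (SE 0.17). Anln, with more counts but a wide spread between the SSM3 libraries, came close (SE 0.17). With library size only the share of higher among all calls was 56.5%, against 49.6%.

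With the GC trend removed, and with the GC and length trends removed, these members changed sign: Gins2 (-0.087 and -0.031), Cdc6 (0.063 and 0.10), Rrm1 (0.22 and 0.28), Ccne2 (0.076 and 0.096), Cdc20 (-0.11 and -0.10) and Mad2l1 (0.11 and 0.20). Ube2c was at -0.020 in the latter. With library size only Cdc6 was at 0.082 and Mki67 at 0.032. With upper quartile factors Top2a and Ube2c were at -0.020 and -0.025, with at least 10 counts in every library at -0.0066 and -0.010, and thinned to the smallest library Ube2c was at -0.00097. Without each library Top2a ranged from -0.026 to 0.077, Ube2c from -0.028 to 0.033 and Fen1 from -0.13 to 0.27. The cause of these changes was not tested. DESeq2 did not call Mcm2 and Tpx2.

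Same-numbered libraries of the lines deviated together with correlations of 0.012, 0.015 and 0.027, beside -0.021 to 0.0076 for differently numbered ones. All are small, and they do not settle whether the numbers mark a pairing. With the replicate number as a block 9481 genes passed, with 9 S-phase genes higher and 13 lower and 7 G2/M genes higher and 21 lower, and no call of a member changed.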
